A study of Mus musculus with 6 samples.

Results

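The small leucine-rich proteoglycans (SLRPs) were examined in cultured mouse calvarial preosteoblasts through 10 genes, Dcn, Bgn, Fmod, Lum, Ogn, Aspn, Omd, Kera, Prelp and Chad, taken by symbol from a table of 17001 rows. All 10 genes had a row of their own. RNA-seq was performed on 6 libraries of preosteoblasts released by digestion of skull caps at 3 days of age, 3 from NELL2 fx/fx mice (control) and 3 from Col1-cre; NELL2 fx/fx mice (cKO). Both groups carry floxed alleles of Nell2, which encodes a secreted glycoprotein, and the cKO mice also carry Cre recombinase under a Col1a1 promoter fragment, so that recombination is limited to cells in which this promoter is active. The comparison addresses how loss of NELL2 in osteoblastic cells alters gene expression. Whether a library came from 1 pup or a pool is not given in the sources used here. The p-values therefore measure only the spread between these libraries, and how much of it is technical is not known.

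SLRPs are secreted proteins with a core of leucine-rich repeats that bind collagen fibrils in the extracellular matrix. Many carry chondroitin, dermatan or keratan sulfate chains, and several bind growth factors such as TGF-β. In bone, biglycan and decorin are known as matrix components made by osteoblastic cells, while keratocan, osteomodulin and osteoglycin are known from osteoblasts as well as from cornea or soft connective tissue.

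Values are FPKM (sequenced fragments divided by transcript length and by the size of the library). Genes and libraries can be compared on this scale only approximately, and some differences depended on further scaling, as given below for Bgn. FPKM summed to between 573307 and 606428 per library, and the number of reads behind each value is unknown. Nell2 itself was 3.17, 2.59 and 1.88 FPKM in control replicates 1 to 3. In the libraries labelled cKO it was 5.64, 1.61 and 5.74, below every control in replicate 2 and above every control in replicates 1 and 3. The mean was not lower there (4.33 against 2.55 FPKM). The authors report NELL2 deletion in calvarial preosteoblasts by qRT-PCR, with primers for knockout efficiency, and by western blotting. Those are other measures than the FPKM used here. A gene-level value does not separate the floxed part from the rest of the gene. Directions follow the labels. The osteoblast markers Runx2, Sp7, Alpl, Col1a1, Ibsp and Bglap were detected in every library. Of these 6, 4 had an unadjusted p under 0.05 in limma, all lower in the libraries labelled cKO, beside 7.76% of all tested genes. Among markers of other cells, 4 epithelial genes summed to 0.46 to 13.2 FPKM in the controls and 15.9 to 42.5 FPKM in cKO libraries. The sum of 5 adipocyte genes was 22.6 to 33.1 and 60.7 to 96.4 FPKM, mostly from Fabp4, with means of 18.7 and 62.8 FPKM. Means of Pparg were 2.65 and 3.66 FPKM, and those of Cebpa 6.83 and 6.92 FPKM. At an unadjusted p under 0.05 in limma, 3 of 3 tested epithelial genes and 2 of 3 tested adipocyte genes were higher. The share over all tested genes was 5.37%, and 0 of all tested genes had an adjusted p under 0.05. The adipocyte genes Adipoq and Plin1 had at most 0.39 FPKM. The part of these cells in the SLRP values was not tested. In a culture of mixed cells, fewer cells of a type and less RNA per cell cannot be told apart.

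The genes of this family lie largely in clusters. In GRCm38 (GENCODE release M21), Dcn, Lum, Kera and Epyc follow each other on the plus strand of chromosome 10 (chr10:97479609-97682454, 202.8 kb), with gaps of 47.0, 34.2 and 30.4 kb and 0 protein-coding genes between them. Ecm2, Aspn, Omd and Ogn do the same on the plus strand of chromosome 13 (chr13:49504810-49624501, 119.7 kb). Optc and Prelp, on the minus strand, and Fmod, on the plus strand, span 151.1 kb of chromosome 1 (chr1:133897199-134048277). Bgn on chromosome X (chrX:73483602-73495933) and Chad on chromosome 11 (chr11:94565047-94569127) lie outside these clusters. Epyc, Ecm2 and Optc are SLRP genes outside the 10 and are used here for comparison.

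Start-site sequence is given for 4 members because they had different expression patterns: Bgn, which was higher in the libraries labelled cKO, Kera, which was lower, and the neighbours Omd and Ogn, which varied most among the cKO libraries. The sequences are RefSeq promoters of GRCm38.p6, 250 bases before to 50 after the annotated start, and 8 of the 10 members had one in the table used, all but Dcn and Lum. They are written from 5′ to 3′, and capitals mark letters matching 1 of 5 motifs sought on both strands: the basal promoter element TATAAA, the Sp1-type element GGGCGG (GC box), the NF-Y-type element CCAAT, the core TGTGGT read by RUNX factors, and TGANTCA, which is bound by AP-1. A match on the other strand stands as its reverse complement.
Bgn (chrX:73483351-73483650, plus strand): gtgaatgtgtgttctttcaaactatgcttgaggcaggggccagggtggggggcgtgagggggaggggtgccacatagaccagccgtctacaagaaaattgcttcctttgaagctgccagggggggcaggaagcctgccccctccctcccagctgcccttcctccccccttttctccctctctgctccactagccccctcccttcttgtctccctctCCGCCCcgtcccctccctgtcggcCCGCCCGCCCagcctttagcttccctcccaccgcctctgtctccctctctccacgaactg
Kera (chr10:97606955-97607254, plus strand): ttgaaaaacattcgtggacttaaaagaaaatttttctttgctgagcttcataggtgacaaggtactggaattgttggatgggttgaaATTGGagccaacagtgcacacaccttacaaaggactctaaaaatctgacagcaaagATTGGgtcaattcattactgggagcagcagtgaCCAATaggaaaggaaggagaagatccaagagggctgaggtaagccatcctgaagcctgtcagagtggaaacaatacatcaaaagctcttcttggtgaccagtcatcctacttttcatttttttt
Omd (chr13:49582212-49582511, plus strand): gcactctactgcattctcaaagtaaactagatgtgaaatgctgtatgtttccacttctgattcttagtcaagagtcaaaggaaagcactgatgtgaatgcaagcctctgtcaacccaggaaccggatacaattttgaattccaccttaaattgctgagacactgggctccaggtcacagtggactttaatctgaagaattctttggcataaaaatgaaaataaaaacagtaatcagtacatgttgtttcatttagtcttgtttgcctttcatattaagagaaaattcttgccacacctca
Ogn (chr13:49607765-49608064, plus strand): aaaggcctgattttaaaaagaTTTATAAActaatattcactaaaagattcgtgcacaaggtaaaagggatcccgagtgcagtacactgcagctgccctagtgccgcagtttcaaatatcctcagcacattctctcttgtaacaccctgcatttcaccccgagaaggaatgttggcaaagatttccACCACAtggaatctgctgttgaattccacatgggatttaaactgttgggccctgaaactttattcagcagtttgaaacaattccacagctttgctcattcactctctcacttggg
The Bgn promoter had the highest GC content of the 8, 63.7%, against a median of 52.7% over 32851 promoters, and held 3 GC-box matches in the last bases before the start, the last pair of them overlapping. GC boxes occurred in 35.7% of all promoters. The Kera promoter had a GC content of 41.0% and 3 matches to the CCAAT element. At least 1 match was found in 37.4% of promoters. The Kera window lies inside the gene as placed by GENCODE (chr10:97606879-97613692), so the RefSeq start used here is downstream of the GENCODE start. The Omd window held none of the 5 motifs, and that of Ogn held 2 overlapping TATA matches (13.6% of promoters) and 1 RUNX core (16.8%). Both TATA matches are a single stretch read on either strand, from base -229 to base -222, far from the start. AP-1 sites, present in 7.81% of promoters, were found in none of the 8. A match is a description of the letters and not a bound site.

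The 10 genes covered a wide range of levels. Bgn, with a mean of 2152 ± 80.9 FPKM (SD, n = 3) in the controls, ranked 31st of the 17001 rows by mean over all 6 libraries, Lum 89th and Dcn 135th. Fmod and Aspn followed, then Ogn, Prelp, Omd and Kera, and Chad was at or near 0. This order was the same in each of the 6 libraries. The ranges of neighbours in the order did not overlap over the 6 libraries except those of Lum (853 to 1281 FPKM) and Dcn (601 to 903 FPKM), and even there Lum was above Dcn within every library.

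**Figure D1:**
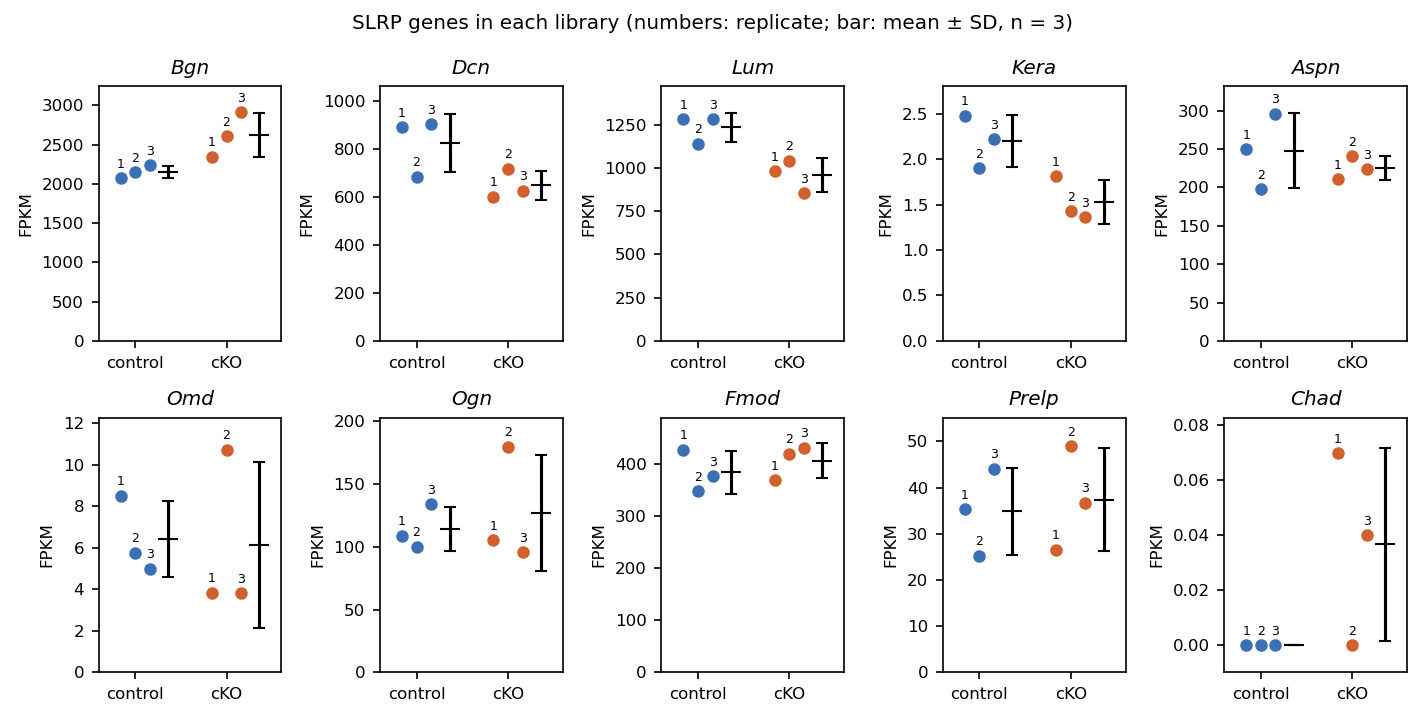
FPKM (vertical axis, linear, a scale of its own for each gene) of the 10 SLRP genes in 3 control and 3 cKO libraries; points are libraries numbered by replicate, and bars beside them are the mean ± SD (n = 3). The groups are separate for Bgn (higher in cKO), Lum and Kera (both lower in cKO), while cKO replicate 2 stands above the other cKO libraries for Omd and Ogn.

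Between the groups, the mean of Bgn was higher in the libraries labelled cKO, by 21.8% of the control mean, and those of Lum, Dcn and Kera differed by -22.3%, -21.5% and -30.3%. The other 5 tested members had intervals that included no difference. None of this passed the adjusted test. Of the 9 members that reached 1 FPKM in 3 or more libraries, 0 had an adjusted p under 0.05 in limma with Benjamini-Hochberg adjustment over 11590 genes, where the share called was 0%. At an unadjusted p under 0.05 there were 4 of 9, against 13.1% of all tested genes. Lower values accounted for 3 of them, where the share over all genes was 7.76%, and a higher value for 1, where it was 5.37%. The groups did not overlap for 3 members, against 18.3% of all genes. Of these, 2 were lower (11.8% of all genes) and 1 was higher (6.51%). The median log2 difference of the 9 members was -0.12, and that of all tested genes -0.018. The count of 4 became 2, Lum and Kera, without control replicate 1, where the share over all genes was 8.02%. The count of 3 became 5 without control replicate 2 and without cKO replicate 2, where the shares were 25.7% and 25.8%.

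Bgn encodes biglycan, which usually carries a pair of chondroitin or dermatan sulfate chains and is abundant in bone matrix. It was 2075, 2145 and 2237 FPKM in control replicates 1 to 3. In cKO replicates 1 to 3 it was 2348, 2610 and 2910 FPKM. Every library labelled cKO was above every control. The mean was 21.8% higher, and the log2 difference was 0.28 (SE 0.090, 95% interval 0.067 to 0.49), with an unadjusted p of 0.0171 and an adjusted p of 0.312 in limma. After quantile normalization of the libraries the difference was 0.17 with an unadjusted p of 0.0546. Because Bgn is X-linked, the Y-linked gene Ddx3y was also read, and it was 15.7 to 17.3 FPKM in control replicate 3 and cKO replicates 1 and 3 and 0 to 0.06 FPKM in the other 3 libraries. With Ddx3y as a covariate the Bgn difference was 0.27 (limma, unadjusted p = 0.0407).

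Lum, Dcn and Kera, the 3 members on chromosome 10, were each lower in the libraries labelled cKO. Lumican, encoded by Lum, is a keratan sulfate proteoglycan that binds collagen fibrils. Lum was 1281, 1139 and 1281 FPKM in control replicates 1 to 3 and 980, 1041 and 853 FPKM in cKO replicates 1 to 3. The groups did not overlap. The log2 difference was -0.37 (SE 0.094, 95% interval -0.59 to -0.14), a change of the mean of -22.3%, with an unadjusted p of 0.00614 and an adjusted p of 0.312 in limma.

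Decorin, encoded by Dcn, carries a single glycosaminoglycan chain, binds collagen fibrils and regulates their diameter. Dcn was 890, 685 and 903 FPKM in the controls and 601, 718 and 626 FPKM in the libraries labelled cKO. Control replicate 2 was below cKO replicate 2, so the groups overlapped, although the other controls were above all 3 cKO libraries. The log2 difference was -0.34 (SE 0.13, 95% interval -0.64 to -0.042), with an unadjusted p of 0.0309 and an adjusted p of 0.342 in limma. The unadjusted p was between 0.0838 and 0.1 without any 1 of control replicates 1 and 3 and cKO replicates 1 and 3, and 0.0583 with Ddx3y as a covariate.

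Keratocan, encoded by Kera, is known for its part in corneal transparency and is also made by osteoblasts. Kera was 2.48, 1.90 and 2.22 FPKM in the controls and 1.81, 1.43 and 1.36 FPKM in the libraries labelled cKO. The groups were separate, with cKO replicate 1 just below control replicate 2, at a level far below that of its neighbours. The log2 difference was -0.34 (SE 0.099, 95% interval -0.57 to -0.10), with an unadjusted p of 0.0114 and an adjusted p of 0.312 in limma. The log2(FPKM + 1) scale understates the change of such a low gene, and the mean differed by -30.3% on the FPKM scale. Of the 6 osteoblast markers, Sp7, a transcription factor of osteoblast differentiation, had a log2 difference of -0.48. Alpl, alkaline phosphatase, had -0.45, Ibsp, bone sialoprotein, -1.27, and Bglap -1.15. Runx2 and Col1a1, whose groups overlapped, had -0.21 and -0.0090. Adjusted p-values of the 6 in limma were between 0.312 and 0.961. The part of these markers in the difference was not tested.

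Members on chromosome 13 showed no difference larger than the spread between replicates. Asporin, encoded by Aspn, binds collagen and TGF-β and lacks glycosaminoglycan chains. Aspn was 250, 197 and 296 FPKM in the controls and 210, 241 and 224 FPKM in the libraries labelled cKO. The cKO values lay within the control range, and the log2 difference was -0.12 (SE 0.15, 95% interval -0.47 to 0.22; limma adjusted p = 0.733).

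Omd encodes osteomodulin, a keratan sulfate proteoglycan of mineralized matrix. It was 8.51, 5.78 and 5 FPKM in the controls and 3.84, 10.7 and 3.81 FPKM in the libraries labelled cKO. Replicate 2 held the highest cKO value and exceeded every control, whereas the other cKO libraries were below every control. The log2 difference was -0.17 (SE 0.36, 95% interval -1.03 to 0.69; limma adjusted p = 0.860), and without cKO replicate 2 it was -0.59. Control replicates 1 and 2 and cKO replicate 2 had Ddx3y at 0 to 0.06 FPKM. Each had more Omd than any library with Ddx3y at 15.7 to 17.3 FPKM. With Ddx3y as a covariate the Omd difference was 0.11 (SE 0.22). The part of Ddx3y status in the Omd values was not tested.

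Osteoglycin, also called mimecan and encoded by Ogn, is found in bone and connective tissue. Ogn was 109, 99.9 and 134 FPKM in the controls and 105, 179 and 95.4 FPKM in the libraries labelled cKO. Again cKO replicate 2 was the highest of all libraries and the rest overlapped. The log2 difference was 0.10 (SE 0.24, 95% interval -0.47 to 0.67; limma adjusted p = 0.876), and it was -0.18 without cKO replicate 2. Cenpp, a centromere protein gene on the opposite strand, spans all of these genes but shares 7 exon bases with Aspn and 0 with Omd and Ogn. Its mean was 3.92 FPKM.

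On chromosome 1, fibromodulin, encoded by Fmod, carries keratan sulfate and takes part in collagen cross-linking. Fmod was 428, 347 and 377 FPKM in the controls and 369, 419 and 432 FPKM in the libraries labelled cKO. The values overlapped, and the log2 difference was 0.084 (SE 0.10, 95% interval -0.15 to 0.32; limma adjusted p = 0.732).

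Prelp, whose product links basement membranes to connective tissue, was 35.3, 25.2 and 44.1 FPKM in the controls. It was 26.6, 49.0 and 36.7 FPKM in the libraries labelled cKO, with a log2 difference of 0.092 (SE 0.26, 95% interval -0.53 to 0.71; limma adjusted p = 0.901). The groups overlapped almost completely. An antisense transcript, Gm15851, shares 350 exon bases (9.68%) with Prelp, and reads of both strands cannot be told apart where the counting is not stated to use strand. Chad encodes chondroadherin, a cartilage matrix protein, and was listed at 0 in the 3 controls and at 0.07, 0 and 0.04 FPKM in the cKO libraries. It was below the filter and was not tested.

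**Figure D2:**
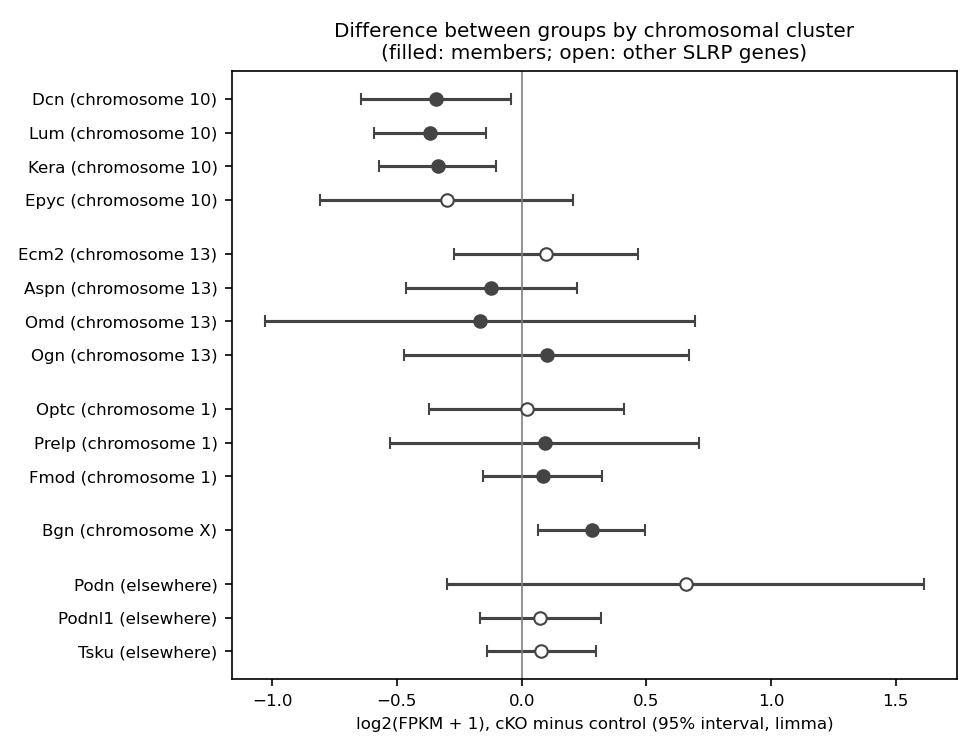
Difference of log2(FPKM + 1) between cKO and control (horizontal axis, log2 units) for the 9 tested members (filled) and 6 other SLRP genes (open), ordered by chromosome; points are limma estimates and bars 95% intervals. All 4 genes of chromosome 10 lie below 0, those of Lum, Dcn and Kera with intervals that end below 0, and Bgn lies above it.

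Arranged by position, a grouping chosen after the values were seen, the log2 differences were similar within chromosome 10 and mixed elsewhere. All 4 genes of chromosome 10 were negative, from -0.37 to -0.30. Epyc, which encodes the cartilage SLRP epiphycan, was 46.2, 30.6 and 35.0 FPKM in the controls and 24.3, 39.9 and 26.8 FPKM in the libraries labelled cKO, with overlapping groups (log2 difference -0.30, SE 0.21, limma adjusted p = 0.564). A lincRNA on the opposite strand, Gm10754, shares 40.6% of its exon bases. On chromosome 13, 2 of 4 genes were negative and 2 positive, from -0.17 to 0.10, and on chromosome 1 all 3 were positive, from 0.019 to 0.092. Genes of 1 cluster come from the same libraries and are not replicates of each other.

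The summed expression of the 10 genes overlapped between the groups, while the shares of its 3 main genes did not. The sum was 5001 ± 323 FPKM in the controls and 5032 ± 338 FPKM in the libraries labelled cKO (SD, n = 3 each), or 0.854% and 0.851% of all FPKM of a library. Bgn made up 43.1% ± 2.73 of it in the controls and 52.1% ± 3.56 in the libraries labelled cKO (SD, n = 3 each). Lum took 24.7% ± 0.495 and 19.1% ± 2.38, and Dcn 16.5% ± 1.5 and 12.9% ± 0.766 (SD, n = 3 each). The groups did not overlap for any of these 3 shares. Shares of 1 sum are not independent, since a larger Bgn share leaves less for the rest, and the FPKM values of Dcn did overlap.

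**Figure D3:**
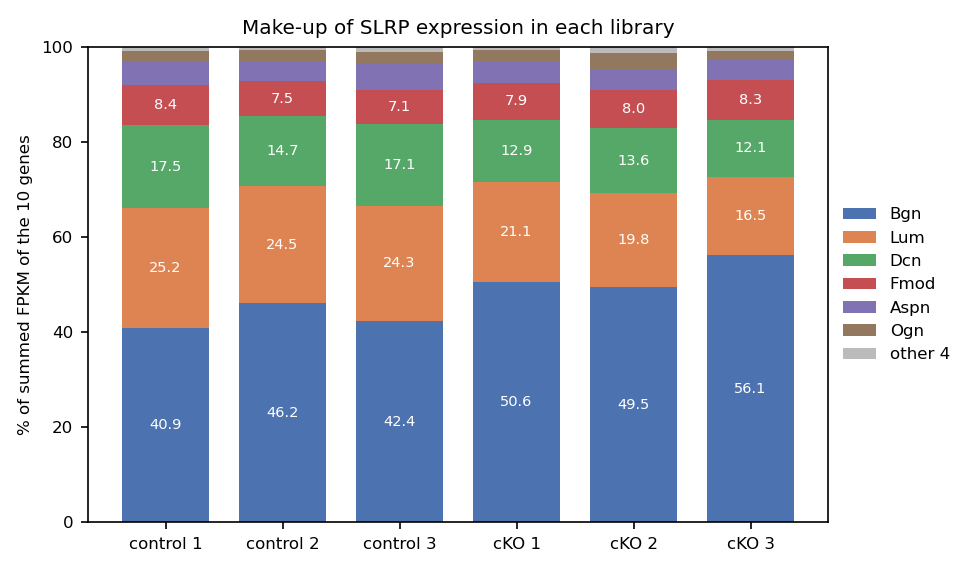
Percent of the summed FPKM of the 10 SLRP genes (vertical axis, 0 to 100%) taken by each gene in each of the 6 libraries; grey stands for Prelp, Omd, Kera and Chad together. The Bgn share is 40.9% to 46.2% in the controls and 49.5% to 56.1% in the libraries labelled cKO.

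Ratios between members within a library do not depend on a single factor that scales the whole library. Quantile normalization is not such a factor and can change them. The ratio of Bgn to Dcn was 2.33, 3.13 and 2.48 in control replicates 1 to 3 and 3.91, 3.64 and 4.64 in cKO replicates 1 to 3. That of Bgn to Lum was 1.62, 1.88 and 1.75 in the controls and 2.40, 2.51 and 3.41 in the libraries labelled cKO. Both ratios were higher in every library labelled cKO than in every control, which for Bgn to Lum follows from the values of each gene already given. Fmod to Lum was likewise separate, at 0.294 to 0.334 against 0.376 to 0.506. The ratio of Lum to Dcn was 1.51 ± 0.135 in the controls and 1.48 ± 0.137 in the libraries labelled cKO (SD, n = 3 each), and the groups overlapped. These shares and ratios were chosen after the values were seen and were not tested.

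Within the groups, the members also varied together to different degrees. Control replicate 2 was the lowest control for 7 of the 9 tested members, all but Bgn and Omd, and cKO replicate 2 was the highest cKO library for 6. In cKO replicate 2, log2(FPKM + 1) exceeded the mean of its group by 0.86 for Omd, 0.56 for Ogn and 0.42 for Prelp, but by 0.12 for Lum, and for Bgn it was at the group mean. Ddx3y was 0 FPKM in cKO replicate 2 and 17.3 and 15.7 FPKM in cKO replicates 1 and 3. Its part in this spread was not tested. Levels of Ogn followed those of Ecm2, an SLRP-related gene of the same cluster, with a Pearson r of 0.98 and a Spearman rho of 0.94 over the 6 libraries. Without the 2 libraries farthest from the median, r was 0.76. Ecm2 was 2.12, 1.80 and 2.34 FPKM in the controls and 1.94, 3.21 and 1.89 FPKM in the libraries labelled cKO. Aspn, which lies between Ecm2 and Omd, had an r of 0.49 with Ecm2, 0.23 with Omd and 0.51 with Ogn. Over the 6 libraries, Dcn and Lum had an r of 0.89, Lum and Kera 0.88, and Dcn and Kera 0.75. Without the 2 farthest libraries these were 0.62, 0.80 and -0.15. These correlations include the difference between groups and share libraries, so they are given as a description. For deviations from the group means, r was 0.72 for Dcn and Lum, 0.57 for Lum and Kera and 0.33 for Dcn and Kera.

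**Figure D4:**
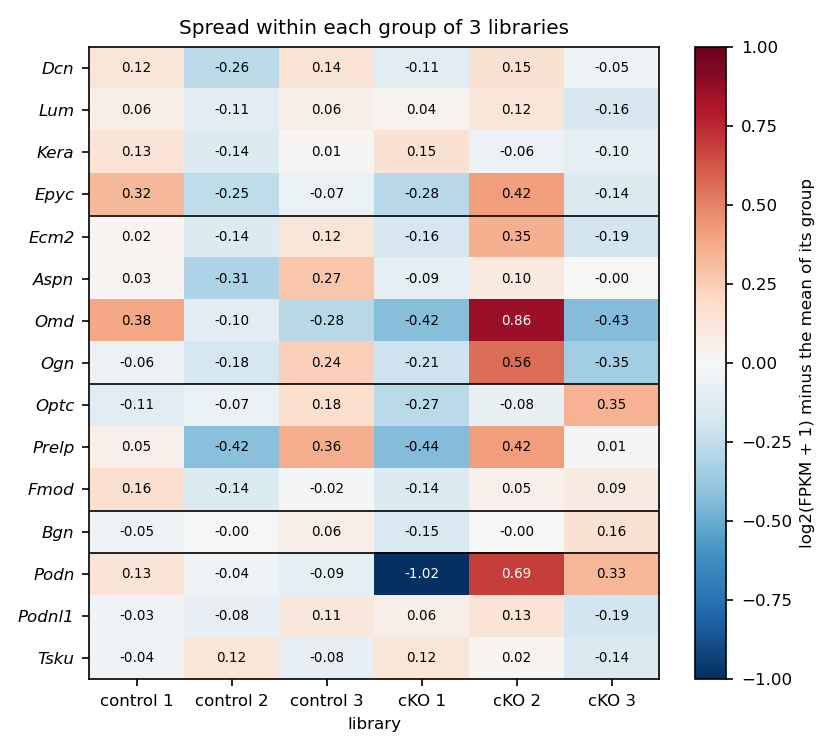
Deviation of log2(FPKM + 1) from the mean of its own group (colour and printed value, log2 units) for SLRP genes (rows, separated by chromosome) in the 6 libraries (columns). Among the cKO libraries, replicate 2 is high for Omd (0.86), Podn (0.69), Ogn (0.56), Prelp (0.42) and Epyc (0.42), and control replicate 2 is low for Dcn (-0.26), Aspn (-0.31) and Prelp (-0.42).

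For 8 of the 9 tested members, the 3 tested genes whose log2 values followed the member most closely over the 6 libraries were taken by Pearson r. For Bgn they were Fam20a, Iars and Gbe1, with r of 0.995 to 0.996. For Lum they were Epb41l2, Man1b1 and Thoc2, for Dcn Appbp2, Fam219a and Reep3, and for Kera Cavin1, Med29 and Ier3ip1. Those for Fmod were Chn2, Hebp1 and Ficd, for Aspn Zfp518b, Gpcpd1 and Nxph3, and for Prelp 5730455P16Rik, Vps37a and Phpt1. Ogn was followed most closely by Cnpy2, Eid1 and Osr2. With 6 libraries such values are common: between 10 (Fmod) and 107 (Bgn) genes had an r over 0.95 with a member. No SLRP gene was among the 3 closest to another.

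Of 8 other SLRP genes, 6 passed the filter on low values and 0 had an unadjusted p under 0.05, beside 13.1% of all tested genes. Podn, which encodes podocan, had the largest difference of the 6, at 18.4, 16.2 and 15.7 FPKM in the controls and 12.8, 44.1 and 34.1 FPKM in the libraries labelled cKO. cKO replicate 1 was below every control and the other cKO libraries far above them. The log2 difference was 0.66 (SE 0.40, 95% interval -0.30 to 1.61; limma adjusted p = 0.508), and without cKO replicate 1 it was 1.17 (limma adjusted p = 0.0210). Without cKO replicate 2 it was 0.31 and without cKO replicate 3 0.49 (limma adjusted p = 0.814 and 0.799). Optc, Podnl1, Tsku and Ecm2 had differences between 0.019 and 0.098, with adjusted p-values in limma between 0.729 and 0.971. Nyx and Chadl were below the filter.

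The enzymes, ligands and partners around the SLRPs were read from lists. In all, 8 lists with the other SLRP genes among them held 100 genes, of which 90 were tested, 0 had an adjusted p under 0.05 and 15 (16.7%) had an unadjusted p under 0.05 in limma, beside the 13.1% of all genes. Of these 15, 6 were higher and 9 lower. The count was 4 without control replicate 1 (8.02% of all genes), 7 without cKO replicate 2 (8.31%) and 8 without cKO replicate 3 (7.35%), and it was 18 without control replicate 3 (13.7%) and 20 without cKO replicate 1 (21.2%). The median log2 difference of the 90 was 0.014.

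The share of all tested genes at an unadjusted p under 0.05 was 13.1%. Among 7 enzymes that build the tetrasaccharide linker joining a chain to its core protein, 1 had an unadjusted p under 0.05. This was Fam20b, the kinase that phosphorylates the linker xylose, at 22.6, 22.8 and 21.3 FPKM in the controls and 19.6, 18.6 and 19.4 FPKM in the libraries labelled cKO (log2 difference -0.20, SE 0.060, limma adjusted p = 0.312). The groups did not overlap. B3gat3, a glucuronosyltransferase and the highest of the list, had a log2 difference of -0.088 (limma adjusted p = 0.525). Of 17 tested chondroitin and dermatan sulfate enzymes, 3 had an unadjusted p under 0.05, beside the same 13.1%. Chst12, a chondroitin 4-O-sulfotransferase, had means of 50.2 and 41.4 FPKM (log2 difference -0.28, limma adjusted p = 0.326), and Chst7, a chondroitin 6-O-sulfotransferase, had means of 1.73 and 1.23 FPKM (-0.29, adjusted p = 0.328). Chsy3, a chondroitin synthase, was in the other direction with means of 5.23 and 6.10 FPKM (0.19, adjusted p = 0.361), and the highest of the list, Chpf2, differed by -0.083. Of 8 tested keratan sulfate and tyrosine sulfation genes, B3gnt2, which extends poly-N-acetyllactosamine, had a log2 difference of 0.24 (limma adjusted p = 0.317) and Tpst1, a tyrosylprotein sulfotransferase, -0.23 (limma adjusted p = 0.325).

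**Figure D5:**
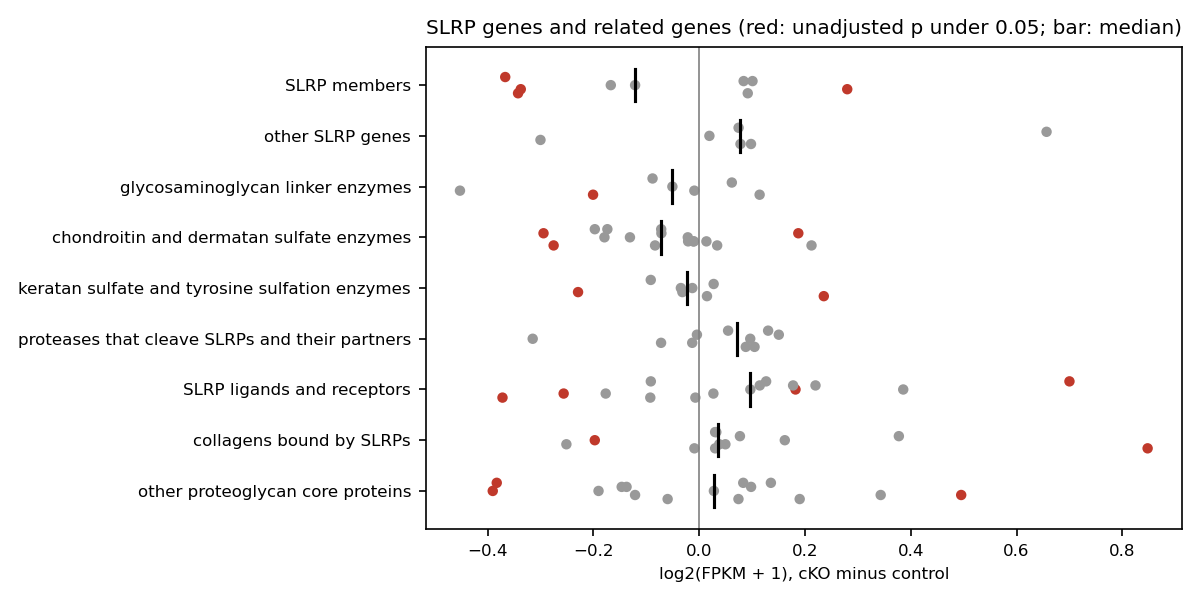
Difference of log2(FPKM + 1) between cKO and control (horizontal axis, log2 units) for the tested genes of the SLRP members and 8 related lists (rows); each point is a gene, red where the unadjusted limma p is under 0.05, and black bars are list medians. The SLRP members have 3 red points below 0 and 1 above, with a median of -0.12.

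Of 15 growth factors and receptors listed as SLRP ligands or receptors, 4 had an unadjusted p under 0.05, beside 13.1% of all tested genes. Bmp2, a bone morphogenetic protein, was 3.08, 2.66 and 3.02 FPKM in the controls and 2.10, 2.05 and 1.93 FPKM in the libraries labelled cKO. Its log2 difference was -0.37 (SE 0.068, limma unadjusted p = 0.000959, adjusted p = 0.312), and the groups were well apart. Bmp4 had a difference of -0.26 (limma adjusted p = 0.340). In the other direction, Vegfa, an angiogenic growth factor, had means of 24.2 and 40.8 FPKM (0.70, SE 0.18, limma adjusted p = 0.312) and Tgfb3 116 and 132 FPKM (0.18, limma adjusted p = 0.341). Without cKO replicate 1 the Vegfa difference was 0.92 (limma adjusted p = 0.0191), and 324 of all tested genes had an adjusted p under 0.05. With each other library left out it was 0.56 to 0.74 for Vegfa (limma adjusted p = 0.304 to 0.674).

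Among 12 collagen genes, Col1a1, the main collagen of bone and the highest of the list, was 8053 to 8578 FPKM in the controls and 8081 to 8355 FPKM in the libraries labelled cKO, a log2 difference of -0.0090. Its groups overlapped, unlike those of Bgn, Lum and Kera. Col5a3 had means of 5.97 and 12.2 FPKM (0.85, SE 0.26, limma adjusted p = 0.312). Those of Col12a1 were 462 and 404 FPKM (-0.20, SE 0.075, limma adjusted p = 0.350). Without cKO replicate 1 the Col5a3 difference was 1.15 (limma adjusted p = 0.0240). With each other library left out it was 0.58 to 0.87 (limma adjusted p = 0.330 to 0.674). Of 10 tested proteases and partners 0 had an unadjusted p under 0.05, beside 13.1% of all tested genes. The highest of them, Pcolce, the procollagen C-proteinase enhancer, differed by 0.097 (limma adjusted p = 0.518). Of 15 other proteoglycan core proteins, Gpc1, a glypican, had a log2 difference of -0.39, Spock2, a testican, -0.38, and Acan, the cartilage proteoglycan aggrecan, 0.50, with limma adjusted p-values of 0.329, 0.321 and 0.376.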

How the data were processed

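RNA was sequenced from 3 control and 3 cKO libraries. The authors mapped reads with HISAT2 and name DESeq for normalization, and the submitters' processing notes name the build GRCm38. The deposited values are FPKM per gene symbol, rounded to 2 decimals, and the program that made them is not given in the sources used here. FPKM keep no read counts, so no count test was run and depth and counting error are unknown. Log2(FPKM + 1) was compared over the 11590 rows that reached 1 FPKM in 3 or more libraries by limma 3.58.1 in R 4.3.3 (lmFit, eBayes, Benjamini-Hochberg adjustment over all tested genes) with group as the only term, and the script was tested on simulated data. Alternatives were the pseudocount, the filter, the variance prior, scaling, the replicate number as a block, Ddx3y as a covariate and the leaving out of each library.

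The members, gene lists and settings were chosen with earlier results of these data known. All 10 members were named, and from each related list up to 4 genes with the smallest unadjusted p under 0.05, the highest gene, all tested SLRP genes, and the 3 genes most like each member, which are not reported here for Omd. Marker lists covered 9 cell types. Of 4 tested chondrocyte genes 2 had an unadjusted p under 0.05 and were higher in the libraries labelled cKO, beside 5.37% of all tested genes. So were 2 of 4 tested tendon and 2 of 3 tested Schwann and neural genes. Of 3 tested macrophage, 1 tested endothelial and 4 tested muscle genes, 0 had an unadjusted p under 0.05. Positions came from GENCODE M21 and promoters from RefSeq (GRCm38.p6).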

Additional observations from a re-analysis of the deposited data

How the results depend on the processing

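Under 15 alternatives, 0 members had an adjusted p under 0.05 in limma, and the smallest was 0.0800, without cKO replicate 1. Over all genes the count was 0, and it was 324 without cKO replicate 1, with Podn, Vegfa and Col5a3 among them, and 2 without control replicate 3. Lum and Kera had an unadjusted p under 0.05 under all 15 alternatives, Bgn under 13 and Dcn under 9. With each library left out, the count of members at an unadjusted p under 0.05 was 2 to 5 (7.35% to 21.2% of all genes), the count of members whose groups did not overlap 3 to 5 (23.7% to 42% of all genes), and the count in the related lists 4 to 20. Of 34 log2 differences, 7 changed sign under some alternative, and none of the 7 belonged to Bgn, Lum, Dcn or Kera. With a library left out the difference was -0.27 to 0.016 for Aspn, -0.12 to 0.31 for Prelp, -0.59 to 0.049 for Omd, -0.18 to 0.27 for Ogn, -0.031 to 0.015 for Col1a1, -0.079 to 0.19 for Ecm2 and -0.15 to 0.16 for Optc. With Ddx3y as a covariate it was 0.11 for Omd and -0.040 for Optc, with quantile normalization -0.0066 for Optc, and with median centring 0.0042 for Col1a1. The cause was not tested. Deviations of libraries with the same number had correlations of 0.031, -0.17 and 0.21, so the numbers were not taken to pair libraries, and not every library correlated best with its own number. With the replicate block 0 members had an adjusted p under 0.05 and 3 an unadjusted one (Bgn, Kera and Lum). The unknown depth limits what can be said of Chad and of the low values of Kera and Omd.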
